A study of Mus musculus with 10 samples.

Results

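The MYC paralogs Mycn, Myc, Mycl and Mycs were followed in mouse small cell lung cancer (SCLC) cells in which a MYCN transgene could be held on or switched off. The members were the 4 genes with these symbols among the 24391 genes of the count files, and all 4 passed the filter on low counts that left 12835 genes for testing. The labels name 5 cell lines taken from mouse SCLC tumours, G4314, G9351, G9488, G9529 and G9577. Every line carries the genotype Rb;p53,TRE-MYCN, LSL-RTTA, that is, changes in the tumour suppressors Rb and p53, MYCN behind a tetracycline-responsive element, and the doxycycline-dependent activator rtTA behind a stop cassette. For each line, 1 library came from cells kept on doxycycline (MYCN on) and 1 library from cells that had been without the drug for 4 days (MYCN off). Both groups therefore share the genotype and differ in the drug. Doxycycline-treated cells without the transgene were not analysed here, so the drug and the transgene cannot be told apart, and each line stands for 1 culture per condition. The species of the transgene's coding sequence is not given in the labels. Reads from a mouse transgene and from the cell's own Mycn would fall on the same gene. How reads of a transgene from another species would be placed was not tested, so Mycn counts need not measure the transgene.

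MYC proteins are transcription factors with a basic helix-loop-helix leucine zipper that pair with MAX and bind E-box sequences near genes for growth, ribosome production and metabolism. MAX also pairs with MXD proteins and MNT, which repress many of the same genes. In SCLC, the genes MYCL, MYCN and MYC can each be amplified or strongly expressed, usually not together in a given tumour. Mycs is an intronless, MYC-like gene of rodents on the X chromosome.

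Total counts ran from 9586465 to 11960074 with MYCN on and from 9928420 to 11123998 with MYCN off. Levels are given as CPM, read counts brought to a common library total, after TMM scaling, a correction for differences in composition between libraries. Line G9577 stood apart from the other 4. Its 11 neuroendocrine markers summed to 224 CPM on and 173.5 CPM off, against 3332 to 4145 CPM on and 5165 to 6597 CPM off in the others. In G9577, 5 of the 11 reached 10 counts with MYCN on and 8 with MYCN off, while all 11 did in every other library. Most of the G9577 sums came from Ncam1 (99.8 CPM on, 124.7 CPM off) and Uchl1 (117.9 CPM on, 17.25 CPM off). The 9 non-neuroendocrine markers summed to 3181 CPM on and 7217 CPM off in G9577, against 67.2 to 196.5 CPM on and 66.2 to 155 CPM off in the others, and Vim, the mesenchymal filament vimentin, alone gave 1638 CPM on and 4409 CPM off. A list of 7 fibroblast markers summed to 201.9 CPM on and 2255 CPM off in G9577, while no other library passed 5.86 CPM. Of that list, Pdgfrb alone gave 126 CPM on and 1078 CPM off in G9577. Lum had 0.28 CPM on and 6.01 CPM off there. Dcn had 0.093 CPM on and 2.67 CPM off, below G9488 with 1.49 CPM on and 3.03 CPM off. In G9577 with MYCN off, the surfactant gene Sftpa1 alone gave 242.6 of the 245.7 CPM of the 5 airway and alveolar markers, and Lyz2 alone 55.0 of the 60.9 CPM of the 7 macrophage and lymphocyte markers. Of other markers of these lists, Foxj1 had 0.779 CPM there, and Scgb1a1, Krt5, Ptprc and Cd3e had 0. These markers go against a classic neuroendocrine SCLC label for G9577, and the part of these markers in the results below was not tested beyond giving values without this line. In such bulk libraries, fewer cells with a transcript and less of it per cell cannot be told apart.

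The mouse gene Mycn was measured first. It lies on the minus strand of chromosome 12 at 12942899 to 12948642 in the mm9 build. Mycn stood at 537.7, 495.8, 884.4, 791 and 976.6 CPM with MYCN on in G4314, G9351, G9488, G9529 and G9577, and at 176.5, 27.6, 188.7, 109.8 and 85.9 CPM with MYCN off in the same order. Every library with the drug was above every library without it, a separation in this direction that 6.35% of all tested genes had. The mean was 737 ± 212 CPM with MYCN on, against 118 ± 66.5 CPM with MYCN off (SD, n = 5 each). The fitted change was 2.86 on the log2 scale (SE 0.38), a 7.28-fold higher level with MYCN on, with an adjusted p of 0.00421 by edgeR's quasi-likelihood test with the line as a block. The exact two-sided sign-flip permutation test over the 5 lines gave p = 0.0625, the smallest that 5 lines allow. Without G9577 the fitted log2 change was 2.70 (adjusted p 0.00331 by edgeR). Of the 12835 genes tested, 31% passed the same edgeR threshold of 0.05, and 15.3% did so as higher with MYCN on.

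**Figure D1:**
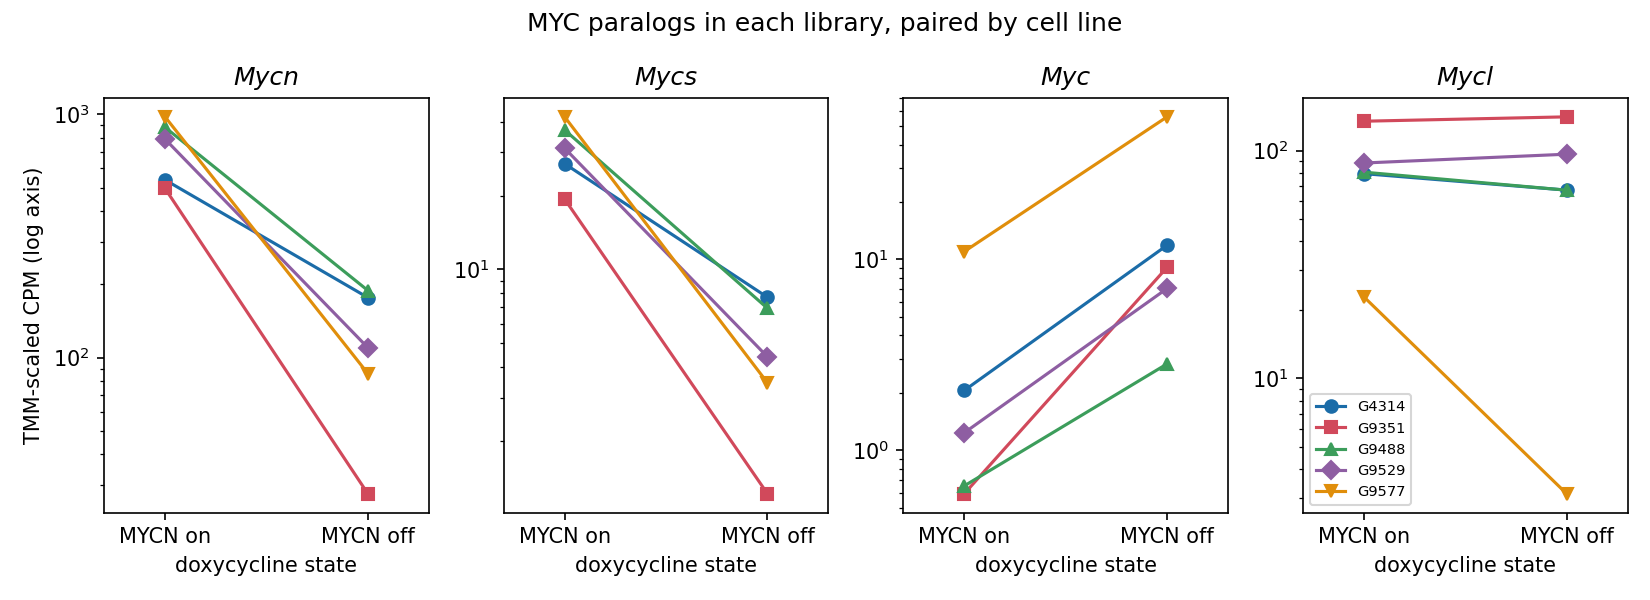
Level of each MYC paralog in each library, in CPM on a log axis, with MYCN on at the left and MYCN off at the right of each panel; points are libraries and lines join the 2 libraries of a cell line. Mycn and Mycs are higher with MYCN on in 5 of 5 lines, Myc is lower in 5 of 5, and Mycl differs widely only in G9577.

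How far Mycn dropped without the drug varied among the lines. The level on doxycycline was 18.0-fold that without it in G9351 (95% interval 16.0 to 20.3) but only 3.05-fold in G4314 (2.89 to 3.21), where the intervals cover counting error only. G9577, G9529 and G9488 lay between them at 11.4-fold, 7.20-fold and 4.69-fold. Expressed as what was left, the level with MYCN off was 32.8% of that with MYCN on in G4314, 21.3% in G9488, 13.9% in G9529, 8.80% in G9577 and 5.56% in G9351. The counts behind these shares were 5486 on and 1949 off in G4314, and 5024 on and 294 off in G9351. Ranks used the length of the mouse gene model, which need not fit reads of the transgene. By CPM per kilobase of gene model, Mycn was between rank 83 and rank 197 of 24391 genes with MYCN on. With MYCN off its rank was 888 at the highest and 7006 at the lowest, the last of these in G9351. Reads of the transgene and of the cell's own Mycn were not separated, so this remainder cannot be assigned to either.

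Myc, the founding member of the family, moved the other way. It lies on the plus strand of chromosome 15 at 61816896 to 61821916 (mm9). Myc had 2.06, 0.592, 0.651, 1.24 and 11 CPM with MYCN on in G4314, G9351, G9488, G9529 and G9577, and 11.9, 9.09, 2.84, 7.05 and 55.9 CPM with MYCN off. It was lower with MYCN on within each of the 5 lines, but the groups overlapped, because G9577 on doxycycline was above G9488, G9529 and G9351 without it. The mean was 3.11 ± 4.45 CPM with MYCN on, against 17.3 ± 21.8 CPM with MYCN off (SD, n = 5 each). The fitted log2 change was -2.64 (SE 0.30), 6.22-fold lower with MYCN on, with an adjusted p of 0.00339 by edgeR with the line as a block; 15.6% of tested genes were called lower. Without the block, edgeR gave a log2 change of -2.48 with an adjusted p of 0.205. Without G9577 it gave, with the block, -2.73 and an adjusted p of 0.00268. The exact two-sided sign-flip permutation test again gave 0.0625.

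The difference in Myc rested on few reads outside G9577. There were 21, 6, 7 and 13 Myc counts with MYCN on in G4314, G9351, G9488 and G9529, and 131, 97, 29 and 80 with MYCN off. G9577 gave 118 counts on and 502 off. The ratio of the level with MYCN off to that with MYCN on was 15.4 in G9351 (95% interval 6.81 to 42.9), 5.77 in G4314 (3.62 to 9.63), 5.70 in G9529, 5.08 in G9577 (4.15 to 6.27) and 4.36 in G9488 (1.87 to 11.8). All of these intervals lay above 1, and those of G9351 and G9577 did not overlap. They cover counting error only and hold no spread between repeat cultures of a line.

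**Figure D2:**
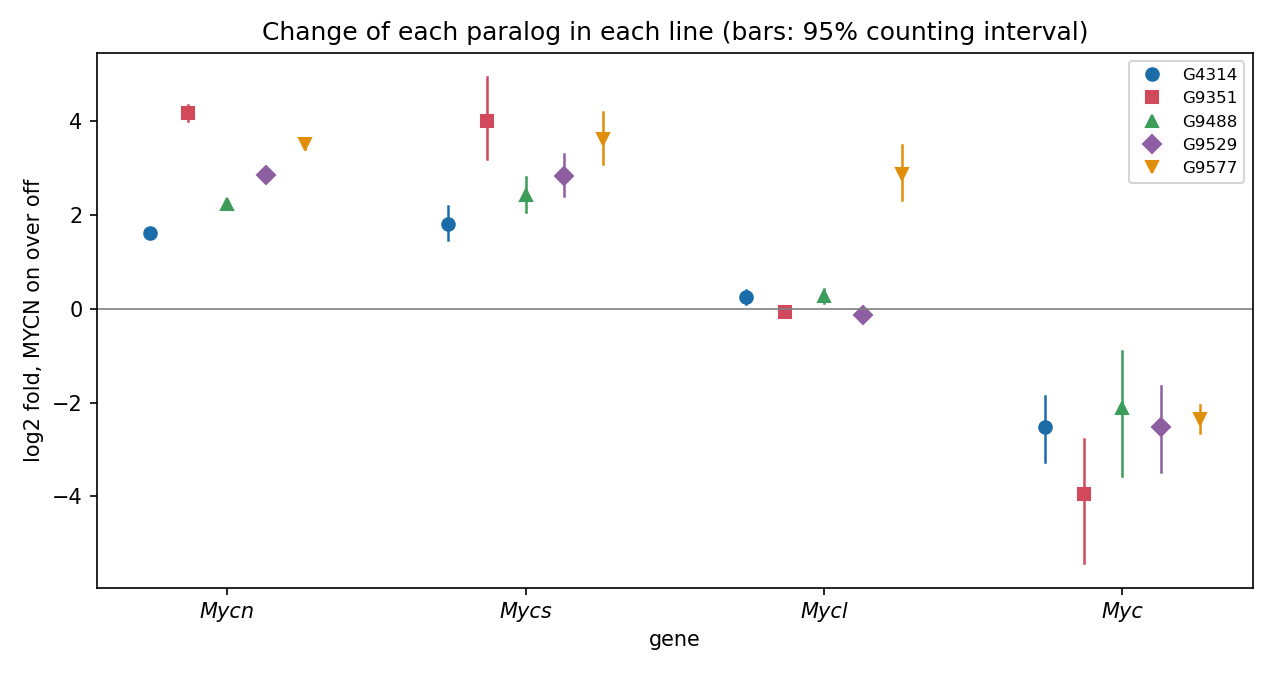
Log2 of the fold between MYCN on and MYCN off for each MYC paralog (horizontal axis) within each of the 5 cell lines, 1 point per line; bars are 95% counting intervals. Mycn runs from 3.05-fold in G4314 to 18.0-fold in G9351, Myc is below zero in each line, and Mycl in G9577 stands above the other 4 lines.

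Mycl, the paralog first found in lung cancer, was the one that did not pass the test. It lies on the plus strand of chromosome 4 at 122673174 to 122679723 (mm9). Mycl had 79.3, 134.7, 80.5, 88.3 and 22.8 CPM with MYCN on in G4314, G9351, G9488, G9529 and G9577, and 67.1, 140.8, 67.1, 96.5 and 3.12 CPM with MYCN off. The groups overlapped, and 3 lines were higher and 2 lower with MYCN on. The mean was 81.1 ± 39.8 CPM with MYCN on, against 74.9 ± 50.2 CPM with MYCN off (SD, n = 5 each), and the fitted log2 change was 0.51 (SE 0.41, adjusted p 0.358 by edgeR). G9577 decided this value: its 245 counts on and 28 counts off made a change of 2.80, while the other 4 lines ran from -0.13 to 0.26. Without G9577 the fitted log2 change was 0.09 (SE 0.12, adjusted p 0.594 by edgeR). G9577 was also the line with the lowest neuroendocrine markers, which together had 224 CPM on and 173.5 CPM off there.

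Mycs went with Mycn in every library. It lies on the minus strand of the X chromosome at 5044022 to 5046383 (mm9). Mycs had 26.9, 19.3, 37.0, 31.2 and 41.8 CPM with MYCN on in G4314, G9351, G9488, G9529 and G9577, and 7.70, 1.22, 6.94, 4.40 and 3.45 CPM with MYCN off. The groups did not overlap, a separation in this direction that 6.35% of all tested genes had. The fitted log2 change was 2.87 (SE 0.35), 7.30-fold higher with MYCN on (adjusted p 0.00368 by edgeR). Mycs counts made up 4.77%, 3.76%, 4.02%, 3.79% and 4.11% of the Mycs and Mycn counts together with MYCN on in the same order of lines, and 4.18%, 4.24%, 3.55%, 3.86% and 3.86% with MYCN off. Over a range of 294 to 10481 Mycn counts, that share stayed between 3.55% and 4.77%. The widest interval was 2.27% to 7.13% (exact binomial, counting error only) in G9351 with MYCN off. With MYCN on, the intervals of G4314 (4.24% to 5.36%) and G9529 (3.40% to 4.22%) did not overlap.

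**Figure D3:**
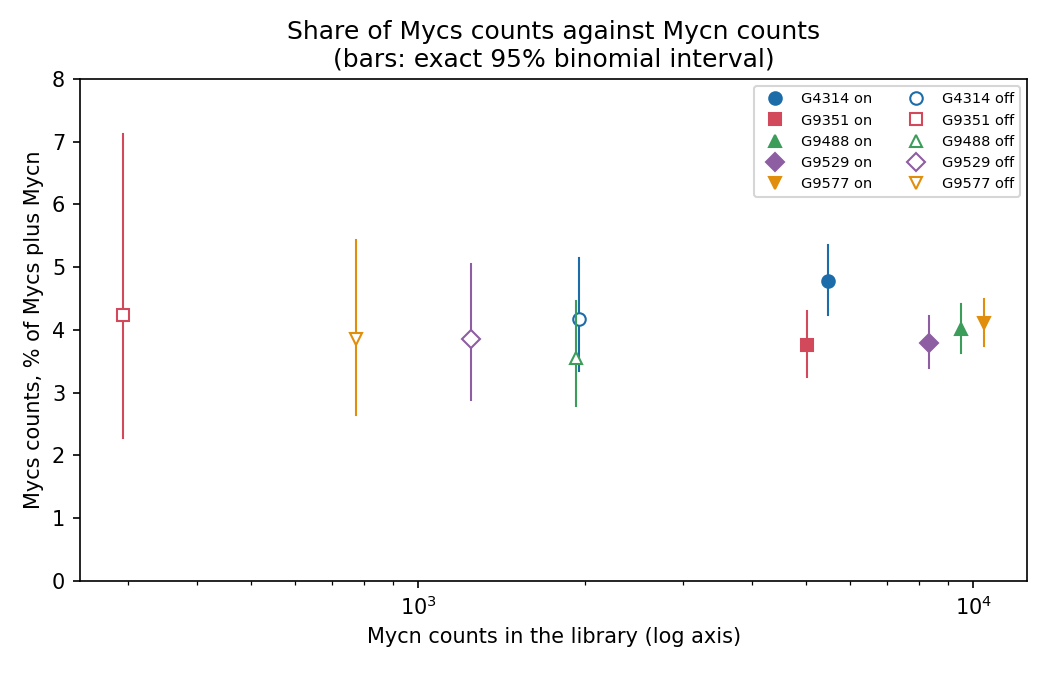
Mycs counts as a percentage of Mycs and Mycn counts together, against Mycn counts on a log axis, in the 10 libraries; filled symbols are MYCN on, open symbols MYCN off, and bars are exact 95% binomial intervals. The share stays between 3.55% and 4.77% from 294 to 10481 Mycn counts.

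The sequences of Mycs and Mycn were set side by side because reads of one gene placed on the other would hold their counts in a fixed ratio. In GENCODE transcripts on the GRCm38 build, which is not the build of the count files, 963 of 1280 aligned coding bases were identical (75.2%). Of the 2319 windows of 50 bases along the Mycs transcript, 0 occurred exactly in Mycn, the nearest had 5 mismatches, and 15 windows (0.647%) came that close. The stretch that holds the longest run shared by both coding sequences, 34 bases, is printed below on the strand of each gene, with the 24 of 90 bases that differ in capitals. It spans coding bases 304 to 393 of both genes and lies at chr12:12940001-12940090 in Mycn and chrX:5468632-5468721 in Mycs.
Mycn: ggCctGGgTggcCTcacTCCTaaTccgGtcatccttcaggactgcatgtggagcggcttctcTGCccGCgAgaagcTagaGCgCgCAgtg
Mycs: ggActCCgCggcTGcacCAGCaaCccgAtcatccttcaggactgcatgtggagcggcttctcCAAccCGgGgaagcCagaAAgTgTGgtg
Every window of 50 bases in Mycs thus differed from the mouse Mycn transcripts at 5 bases or more. The transgene's own sequence was not compared, and whether reads were shared was not tested. The source of the near-constant share was not tested, and the change of Mycs is uncertain as a change of that gene.

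Mycn, Myc and Mycl were then put on 1 scale, CPM per kilobase of gene model, for a rough comparison of levels between genes. Mycn counts were divided by the mouse gene model of 2596 bases. Whether that length fits reads of the transgene was not tested, so Mycn levels and shares on this scale are uncertain. Mycn averaged 283.9 ± 81.7 with MYCN on and 45.3 ± 25.6 with MYCN off (SD, n = 5 each). Mycl averaged 22.1 ± 10.9 with MYCN on and 20.5 ± 13.7 with MYCN off, and Myc 1.29 ± 1.86 with MYCN on and 7.23 ± 9.09 with MYCN off. Mycs was not part of this comparison or of the sums below. On the same scale it had 8.19 to 17.7 with MYCN on and 0.516 to 3.26 with MYCN off. With MYCN on it was above Myc in each line, and above Mycl in G9577 (17.7 against 6.23). Among Mycn, Mycl and Myc, the order with MYCN on was Mycn, Mycl, Myc in each line, and their ranges did not overlap. With MYCN off that order held in G4314, G9488 and G9529, but Mycl was above Mycn in G9351 and Myc was above Mycl in G9577, and the ranges of neighbours in the order overlapped.

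**Figure D4:**
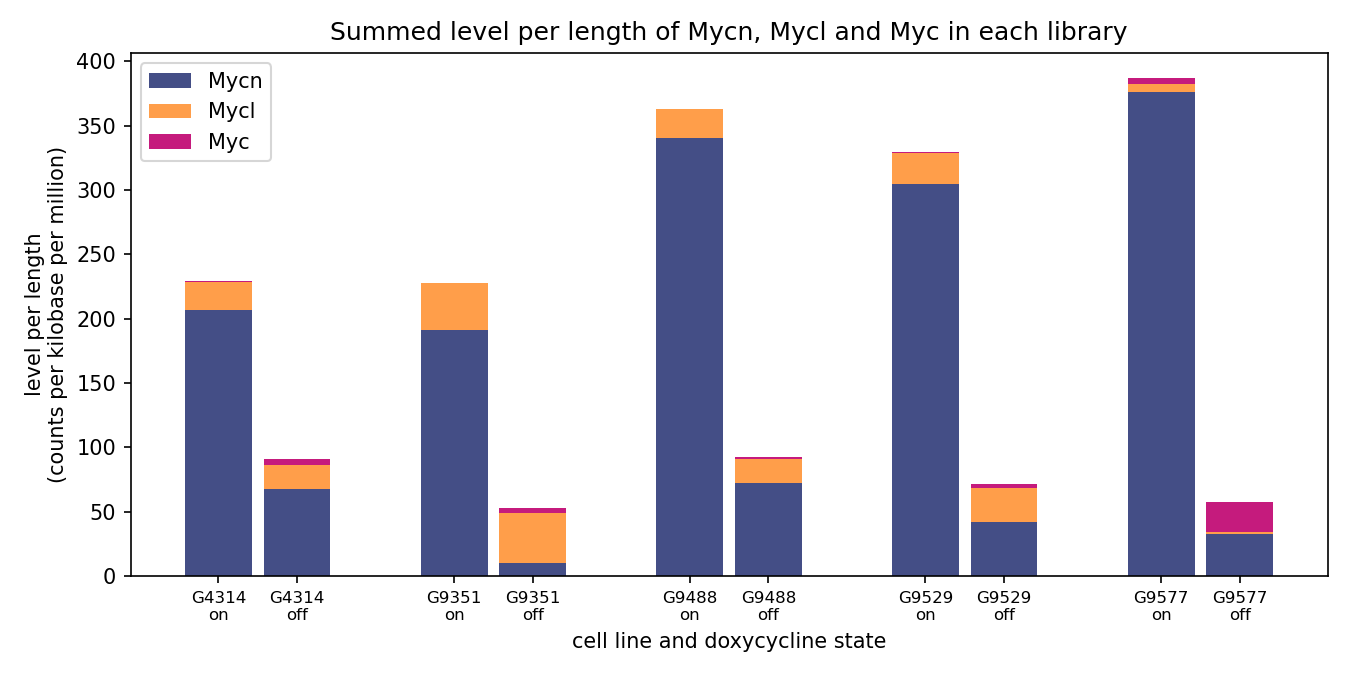
Levels of Mycn, Myc and Mycl in CPM per kilobase of gene model, stacked for each line, MYCN on left of MYCN off. The stacks with MYCN on are 2.52 to 6.76 times as high as those with MYCN off in the same line, and Mycn fills most of each stack on doxycycline.

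The summed level of Mycn, Myc and Mycl was 229.6, 228.0, 362.9, 329.3 and 387.0 with MYCN on in G4314, G9351, G9488, G9529 and G9577, and 91.3, 52.8, 92.2, 71.6 and 57.2 with MYCN off. The sum was thus 2.52 times as high on doxycycline in G4314, 4.32 in G9351, 3.94 in G9488, 4.60 in G9529 and 6.76 in G9577. Mycn made up 83.8% to 97.2% of this sum with MYCN on and 20.1% to 78.9% with MYCN off. What remained with MYCN off differed by line: Mycl was 72.7% of the sum in G9351, and Myc 40.7% in G9577 but at most 7.17% in the other lines. The lower Myc level on doxycycline was small next to the higher Mycn level, at 2.94%, 1.96%, 0.34%, 0.92% and 5.45% of the Mycn difference in G4314, G9351, G9488, G9529 and G9577.

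Genes beside the paralogs in the genome were read next, 3 on each side of Mycn, Myc and Mycl. Of these 18 genes, 10 were expressed enough to test and 6 passed, a share to be read against the 31% of all tested genes. Beside Mycn, Ddx1, an RNA helicase gene that is often co-amplified with MYCN in human tumours, rose by a log2 change of 0.71 (SE 0.14, adjusted p 0.0125) to 331 ± 49.2 CPM with MYCN on, against 201.9 ± 22.4 CPM with MYCN off (SD, n = 5 each). Fam49a fell by 1.32 on the log2 scale (SE 0.30, adjusted p 0.0183), to 13.9 ± 11.8 CPM with MYCN on against 33.4 ± 30.7 CPM with MYCN off. Nbas and Fam84a did not pass.

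Pvt1, the long noncoding RNA gene 47.6 kb downstream of Myc, went against Myc. It was at 6.07 ± 6.37 CPM with MYCN on, against 2.96 ± 4.83 CPM with MYCN off, higher on doxycycline in 5 of 5 lines (log2 change 1.65, SE 0.38, adjusted p 0.0184). Pvt1 counts were low outside G9577, at 29 to 40 with MYCN on and 5 to 14 with MYCN off. G9577 had 187 counts on and 104 off, and the smallest log2 change, 0.58. The more distant 9930014A18Rik was also higher, with a log2 change of 0.94 (SE 0.25, adjusted p 0.0288). Beside Mycl, Mfsd2a, which encodes a lysophospholipid transporter, was at 23.7 ± 9.62 CPM with MYCN on, against 4.30 ± 3.80 CPM with MYCN off (log2 change 2.75, SE 0.61, adjusted p 0.0167). Its groups did not overlap, as for 6.35% of all tested genes in this direction. Ppt1, a lysosomal thioesterase gene, fell by 0.81 (SE 0.19, adjusted p 0.0198), while Trit1 and Cap1 did not pass. Each of these 6 calls was lost when some single line was left out. Without G4314, the adjusted p by edgeR was 0.0523 for Fam49a, 0.0593 for Ddx1, 0.0556 for Pvt1, 0.0657 for Ppt1 and 0.0561 for 9930014A18Rik. Without G9351 it was 0.0541 for Pvt1, 0.0532 for Ppt1, 0.0591 for Mfsd2a and 0.0985 for 9930014A18Rik, which was also lost without G9488 (0.0767) or G9529 (0.0846), as was Fam49a without G9529 (0.0552). Counting ignored strand, and parts of Pvt1, Fam49a, Ppt1 and Cap1 overlap genes on the other strand, so their reads cannot be told apart there.

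**Figure D5:**
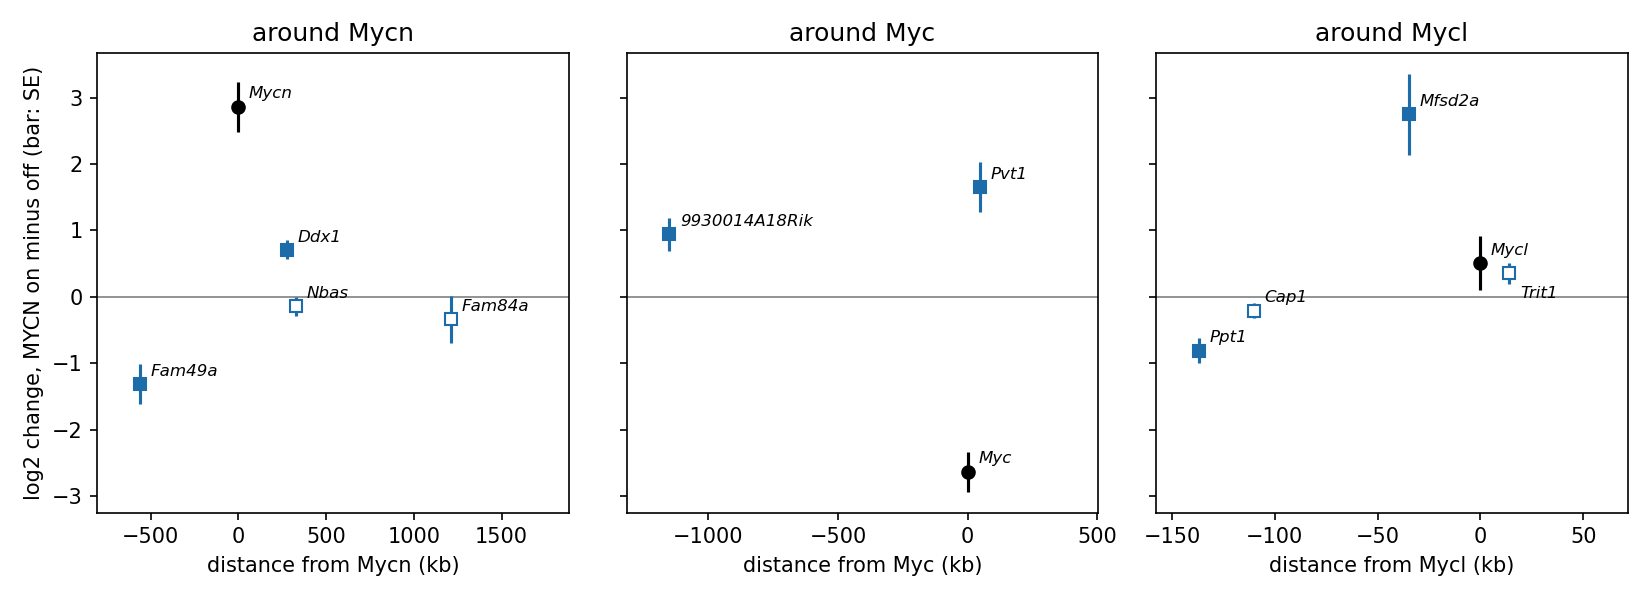
Log2 change (MYCN on minus MYCN off, bars SE) against distance in kb for Mycn, Myc and Mycl (black circles) and the tested genes up to 3 places away on either side (squares, filled where the adjusted p was below 0.05). Pvt1 lies above zero beside Myc below zero, and Mfsd2a at 2.75 lies above its neighbour Mycl.

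Among the partners of the MYC proteins, 10 genes of the MAX network were tested. Of these, 1 rose (10%) and 2 fell (20%), beside 15.3% higher and 15.6% lower among all tested genes, with a median log2 change of 0.20 against -0.08 over all genes tested. Max, the obligate partner, rose to 98.3 ± 15.1 CPM with MYCN on against 57.6 ± 10.1 CPM with MYCN off (log2 change 0.78, SE 0.11, adjusted p 0.0045). The repressors Mxd1 and Mxd4 fell by 1.45 (SE 0.25, adjusted p 0.00793) and 1.42 (SE 0.41, adjusted p 0.0371), the second no longer past the threshold when G4314, G9351, G9488 or G9529 was left out (adjusted p 0.0543 to 0.0761). Of 15 cofactor genes, 5 rose (33.3%, beside 15.3% of all tested genes) and 0 fell, with a median of 0.24. These included the AAA ATPases Ruvbl2, with a log2 change of 1.44, and Ruvbl1, with 1.27, and the acetyltransferase Kat2a, with 1.35.

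Of 17 genes for enzymes that stabilise or destroy MYC proteins, 3 rose and 0 fell, with a median log2 change of 0.15. The share that rose, 17.6%, was near the 15.3% of all tested genes. The nucleolar deubiquitinase Usp36 changed by 0.90 (SE 0.18). The ubiquitin ligase component Skp2 changed by 1.18 (SE 0.35, adjusted p 0.0394), and did not pass without G4314 (0.122), G9351 (0.105), G9529 (0.0668) or G9577 (0.0688). These are mRNA levels, and no protein was measured.

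Genes known as MYC targets were counted in the same way, from lists chosen with earlier results of these data known. Of 25 tested genes that MYC proteins induce, 22 rose (88%, beside 15.3% of all tested genes) and 0 fell, with a median log2 change of 1.70 against -0.08 over all genes. Polr1b, a subunit of RNA polymerase I, was at 120.8 ± 38.8 CPM with MYCN on, against 28.3 ± 7.46 CPM with MYCN off. Npm1, the nucleolar protein nucleophosmin, was at 907 ± 533.6 CPM with MYCN on, against 228.4 ± 90.2 CPM with MYCN off, and Odc1, the enzyme that starts polyamine synthesis, at 116.6 ± 59.8 CPM with MYCN on, against 36.0 ± 16.0 CPM with MYCN off. The log2 changes were 2.07 for Polr1b, 1.93 for Npm1 and 1.66 for Odc1, each with an adjusted p of 0.00266 by edgeR (SD, n = 5 each). Tfrc, Pcna and Tert did not pass.

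Of 10 tested genes that MYC proteins repress, 3 fell (30%, beside 15.6% of all tested genes) and 0 rose, with a median of -0.74. These were Clu, a secreted chaperone, at -3.16 (SE 0.32), and the cell cycle inhibitors Cdkn1b at -1.06 (SE 0.20) and Cdkn2b at -1.14 (SE 0.26); Cdkn2b did not pass without G4314, G9351 or G9488 (adjusted p 0.0521 to 0.0678). Of 18 tested genes that are known to act on Myc transcription or mRNA, 1 rose and 3 fell, with a median of 0.22. The share that fell, 16.7%, was near the 15.6% of all tested genes, and the share that rose, 5.56%, was below 15.3%. The fall was in Prdm1, a repressor of Myc, at -2.50 (SE 0.49), in Tcf7l1, a WNT pathway factor, at -1.09 (SE 0.21), and in Stat3, an activator of Myc, at -1.07 (SE 0.23), the last not past the threshold without G4314 or G9351 (adjusted p 0.0551 and 0.0567). Foxm1, a factor of the cell division cycle, was the 1 that rose, with a log2 change of 1.41, and was named after its values were seen; it did not pass without G4314 or G9351. Prdm1 had between 1 and 14 counts with MYCN on and between 10 and 57 with MYCN off.

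The genes whose pattern was most like each paralog were picked by the Pearson correlation of log2 CPM over the 10 libraries, among 11348 genes with a mean of at least 5 CPM. These libraries share 5 lines and 1 contrast, so the coefficients are a description. Mycn was nearest to Mycs (r = 0.997), Smyd2 (0.962), Ppan (0.957), Snhg6 (0.953) and Gm5088 (0.952); Ppan is a ribosome assembly gene. Myc was nearest to Cdc42bpa (0.980), Skil (0.972), Atp1b1 (0.970), Arhgap1 (0.967) and Cttn (0.967), whose log2 changes of -0.54, -0.42, -1.28, -0.48 and -0.47 had the sign of that of Myc. Mycl was nearest to Panx1 (0.984), Sh2d5 (0.975), Akirin1 (0.972), Uchl1 (0.970) and Map9 (0.969), but without G9577 their coefficients were 0.806, 0.599, 0.406, 0.168 and 0.829. The values for the nearest genes of Mycn and Myc stayed at 0.936 or above without that line. Between paralogs the coefficient was -0.607 for Mycn and Myc, 0.089 for Mycn and Mycl, and -0.716 for Myc and Mycl over the same 10 libraries. In each condition G9577 had the highest Myc (11 CPM on, 55.9 CPM off) and the lowest Mycl (22.8 CPM on, 3.12 CPM off). The coefficients between paralogs were not computed without this line.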

How the data were processed

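The files hold whole-number read counts per gene, deposited by the authors as 1 featureCounts table per library with gene coordinates and gene model length in mm9. Per the submitters' processing notes, the tools were bcl2fastq 1.8.4, STAR 2.5.2a and featureCounts 1.6.0; per the file headers, counting ignored strand, so reads of overlapping genes on opposite strands cannot be told apart. Per the labels' protocols, polyadenylated RNA was taken from TRIzol extracts and NEBNext Ultra was the library kit; no spike-in is named, so levels are relative to each library.

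In R 4.3.3, edgeR 4.0.16 fitted its quasi-likelihood model to all 10 libraries with the line as a block, TMM scaling and a minimum count of 10 in the expression filter, with Benjamini-Hochberg adjustment over 12835 genes and a threshold of 0.05. The biological coefficient of variation was 28.5%, with 4 residual degrees of freedom, and the median log2 change of all genes was -0.08. Pairing by line comes from the labels: deviations of both libraries of a line correlated at 0.721 to 0.873, and those of different lines at up to 0.273. Line changes used log2 CPM with a prior count of 2. Intervals (95%, exact) cover counting error only, since each line gave 1 library per condition. Reads had no molecular identifiers, so duplicate reads could make these intervals too narrow. Members were 4 named symbols; neighbours, the 3 strongest members of each list and the 5 most correlated genes were named by rule, apart from items not reported here. Members and lists were chosen with earlier results of these data known. The model was tested on simulated data. Alternatives were DESeq2 1.42.0, limma 3.58.1 (voom), other scalings and filters, no block, and leaving out each line. p-values measure the spread between lines with 1 culture each. Coordinates of sequences are from GENCODE on GRCm38 and were not mixed with mm9.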

Additional observations from a re-analysis of the deposited data

Results flagged for a closer look

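In 5 of the 23 groups of 5 libraries or lines examined, 1 value lay far from the rest by the size of its gap. Chance alone gives about 1 in 20 for independent groups of normally distributed values. These groups share lines, and the Myc levels and Myc shares share reads, so their number cannot be set against that rate. All 5 were line G9577. Its Myc level was 11 CPM with MYCN on, where the nearest other line had 2.06, and 55.9 CPM with MYCN off, where the nearest had 11.9. Myc made up 1.18% of the summed level of Mycn, Myc and Mycl in G9577 with MYCN on, against a nearest value of 0.374%, and 40.7% with MYCN off, against a nearest value of 7.17%. The log2 change of Mycl in G9577 was 2.80, where the nearest line had 0.26. The 11 neuroendocrine markers of this line summed to 224 CPM with MYCN on, against 173.5 CPM with MYCN off, and the part of that in these values was not tested.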

How the results depend on the processing

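Mycn, Mycs and Mycl kept their direction and their side of the threshold under every alternative run, and Myc did so except without the replicate block, where its log2 change was -2.48. The paired fit by line is the one reported; with no replicate block, 274 genes passed in place of 3973, 1 of the neighbouring genes in place of 6, and 0 of the MAX network in either direction, 3 cofactors higher, 1 turnover gene higher, 13 induced targets higher, 0 repressed targets lower, and 0 regulators of Myc mRNA higher and 0 lower. With DESeq2, 5 turnover genes were higher, 5 repressed targets lower and 3 regulators higher; 2 regulators were higher with limma-voom and with no filter, and 0 with RLE scaling or library size alone. Leaving out each line in turn gave 1729 (without G9351) to 4493 (without G9577) genes passing, with 1768 without G4314, 1 to 6 neighbours, 1 to 2 higher and 1 to 2 lower in the MAX network, 1 to 3 turnover genes higher, 0 to 2 repressed targets higher and 0 to 3 regulators higher. For other named genes, 71 alternative values lost the threshold, 428 kept direction and side, and 2 changed sign, both of Uchl1, which was not called: its log2 change of 0.38 was -0.045 with no replicate block, and ran from -0.085 (without G9577) to 0.598 (without G9488) when each line was left out. Of these 42 other named genes, 16 kept direction and side under every alternative. Odc1 (adjusted p 0.0515 by edgeR) and Ruvbl1 (0.148) were among those that lost the threshold with no replicate block. Myc is limited by depth: 4 of 5 libraries with MYCN on had 21 counts or fewer. The cause of these losses was not tested. The alternatives for neighbouring and other named genes, and those for the lists under limma-voom, other scalings and filters, were chosen after seeing the data.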
